A study of Homo sapiens with 372 samples.

Results

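The cytosolic heat shock proteins were 10 genes, HSPA8, HSPA1A, HSPA1B, HSPA4, HSPH1, HSP90AA1, HSP90AB1, DNAJA1, DNAJB1 and HSPB1, of the 9664 genes with expression values in single A2780 cells. They were picked by symbol, with the low level of HSPA8 after 16 h of paclitaxel already known, so that all values of that comparison are a description of what chose them. All 10 passed a detection filter, a value above 0 in more than 30% of cells in any condition, and counts are read against the 9655 genes that did so.

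Heat shock proteins are molecular chaperones that bind unfolded polypeptides and help them to fold, refold or be degraded. The Hsp70 proteins bind and release clients in a cycle driven by ATP, in which J-domain proteins such as DNAJA1 and DNAJB1 bring the client and stimulate ATP hydrolysis, and the Hsp110 proteins HSPA4 and HSPH1 exchange the nucleotide. Clients such as kinases and hormone receptors pass on to the Hsp90 proteins, and the small heat shock protein HSPB1 holds unfolded proteins without ATP. Transcription of many of these genes is raised by the heat shock factor HSF1, which chaperones hold inactive in unstressed cells, and tumour cells are known for high chaperone levels.

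A2780 is an established human ovarian cancer line. Cells were left without drug (Ctrl), given 5 nM paclitaxel, which stabilizes microtubules, for 16 h (Pac16h) or 48 h (Pac48h), given 75 µM celecoxib, a cyclooxygenase inhibitor, for 2 h (Cele2h) or 16 h (Cele16h), or given both drugs at these doses for 16 h (PacCele16h). Single cells were captured on the Fluidigm C1 system and their polyA RNA was sequenced by Smart-seq2 with spike-in RNAs. Values were available for 46 Ctrl, 56 Pac16h, 53 Pac48h, 63 Cele2h, 61 Cele16h and 59 PacCele16h cells. Levels are E-values, log2(N/10 + 1). N stands for TPM scaled to the spike-in RNA of each cell, so that a level is per transcript length and can be set against that of another gene.

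The labels name no replicate culture, so each condition counts as 1 sample, no test between conditions was possible and an SD below is the spread over cells. The cells of each condition share 1 code in the labels that no other condition has. What the code marks is not given in the sources used here, and condition and code cannot be told apart, nor can the block of 96 library indices, except where Pac48h and PacCele16h used a pair of blocks. All treatments were set against the same Ctrl cells. The summed N per cell differed between conditions, with a median log2 ratio to Ctrl of -0.99 in Pac16h, -0.64 in Pac48h, -0.76 in Cele2h, -1.52 in Cele16h and 0.49 in PacCele16h. Differences are therefore given on the deposited scale, which keeps RNA content, and at the same total, also called equal totals, where every cell was rescaled to the median Ctrl total. The median number of genes above 0 was between 6126 and 6630 in the 6 conditions, and reads per cell are unknown. Of 13 markers of the line and its epithelial origin 2 were listed, VIM with a mean E-value of 3.70 ± 2.45 (SD) and KRT18 with 0.59 ± 1.17 in Ctrl. The other markers of the line were looked up and were not among the genes with values. Of the markers of other cells, LYZ was the 1 of 6 leukocyte genes listed, with mean E-values of at most 0.24, and none of 4 endothelial genes was listed. Of 6 fibroblast genes 3 were listed, with a median summed N between 11.3 and 60.5 across conditions and up to 4127 in a single cell. Among them COL3A1 had a mean E-value of 1.86 ± 1.43 in Ctrl and lay above KRT18 in every condition.

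The promoters of the members are shown because HSF1 binds heat shock elements, inverted repeats of GAA and TTC. The search looked for a pair of units in the letters GAANNTTC or TTCNNGAA, both of which read the same on the 2 strands and overlap each other where a run of 3 units stands. RefSeq sequences on GRCh38.p14, 300 bases each from 250 before to 50 after a transcript start, were matched for 10 of 10 members, with 15 starts in all. A pair of units was found in 9 of the 15 promoters, which belong to 8 members, and a run of 3 units in 4 of the 15, those of HSPA8, HSP90AA1, HSP90AB1 and DNAJA1. Of 35116 RefSeq promoters of that length, 13.5% held a pair and 0.49% a run of 3, and of the 11001 promoters of genes in the expression table, 10.2% held a pair and 0.318% a run of 3. HSPA4 and HSPH1 had no match in these windows. A match describes letters in the window and does not show binding.

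Promoter sequences are printed for HSPA8, DNAJA1 and HSP90AA1, which carry a run of 3 units, and for HSPB1, whose levels had another pattern over the treatments and which carries 1 pair. Each runs 5′ to 3′ on the strand of the gene from 250 bases before to 20 bases after the start, with matches in capitals. They lie at chr11:123062117-123062386 on the minus strand, chr9:33025023-33025292 on the plus strand, chr14:102087025-102087294 on the minus strand, where a start of HSP90AA1 lies that is 1 of 2 annotated, and chr7:76302423-76302692 on the plus strand.
HSPA8: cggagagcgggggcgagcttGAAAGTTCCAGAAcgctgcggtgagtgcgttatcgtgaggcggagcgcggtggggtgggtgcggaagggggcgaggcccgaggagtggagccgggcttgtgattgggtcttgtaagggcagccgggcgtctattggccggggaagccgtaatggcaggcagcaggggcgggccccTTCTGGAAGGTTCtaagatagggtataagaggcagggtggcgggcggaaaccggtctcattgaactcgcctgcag
DNAJA1: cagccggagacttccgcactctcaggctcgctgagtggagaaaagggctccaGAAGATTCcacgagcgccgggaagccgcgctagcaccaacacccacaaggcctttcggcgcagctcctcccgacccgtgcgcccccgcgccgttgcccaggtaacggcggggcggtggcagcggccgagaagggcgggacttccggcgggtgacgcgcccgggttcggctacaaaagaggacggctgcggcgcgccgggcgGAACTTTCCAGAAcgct
HSP90AA1: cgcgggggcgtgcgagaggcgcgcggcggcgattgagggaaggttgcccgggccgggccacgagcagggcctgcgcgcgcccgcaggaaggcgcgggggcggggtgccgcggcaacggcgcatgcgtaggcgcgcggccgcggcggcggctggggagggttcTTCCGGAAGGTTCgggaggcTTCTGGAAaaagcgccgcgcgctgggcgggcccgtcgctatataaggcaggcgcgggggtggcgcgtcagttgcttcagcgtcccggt
HSPB1: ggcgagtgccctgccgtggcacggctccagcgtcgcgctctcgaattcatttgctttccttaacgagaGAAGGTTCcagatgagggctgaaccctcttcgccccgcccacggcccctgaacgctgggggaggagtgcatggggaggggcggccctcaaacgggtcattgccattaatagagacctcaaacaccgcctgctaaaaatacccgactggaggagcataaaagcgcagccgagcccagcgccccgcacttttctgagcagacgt
In the HSPA8 window the runs of 3 units began 230 and 55 bases before the start. In HSP90AA1 the run began 88 bases before it, with a further pair 68 bases before it, and in HSPB1 the pair began 182 bases before it. In DNAJA1 a pair lay 198 bases before the start and the run of 3 units began 3 bases after it.

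HSPA8 encodes Hsc70, the constitutive Hsp70 of the cytosol, and lies at chr11:123057489-123063230 (hg38). In Ctrl its E-value ran from 2.14 to 9.29 over 46 cells, with a median of 8.01. In Pac16h it ran from 0.44 to 9.56 with a median of 5.71, and in Pac48h from 2.36 to 8.22 with a median of 6.48. In Cele2h the lowest, median and highest values were 3.54, 6.17 and 7.50. In Cele16h they were 3.76, 6.41 and 8.03, and in PacCele16h 3.46, 7.48 and 9.87. The ranges overlapped in all conditions, while every one of the 63 Cele2h cells, 54 of 56 Pac16h cells, 50 of 53 Pac48h cells and 60 of 61 Cele16h cells lay below the Ctrl median. Of the PacCele16h cells, 39 of 59 did. HSPA8 was above 0 in every cell of the 6 conditions.

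The mean E-value of HSPA8 was 7.79 ± 1.30 (SD over 46 cells) in Ctrl and 5.51 ± 1.78 (56 cells) in Pac16h, a difference of -2.28. As a ratio of linear means, 2816 normalized TPM in Ctrl stood against 867 in Pac16h, which is 3.25-fold lower. The difference was -1.52 in Pac48h, -1.79 in Cele2h, -1.53 in Cele16h and -0.46 in PacCele16h. At the same total the differences were -1.51 in Pac16h, -0.90 in Pac48h, -1.22 in Cele2h, -0.13 in Cele16h and -1.15 in PacCele16h. The Cele16h difference was thus near 0 between cells of equal total, whereas in PacCele16h a mean near that of Ctrl stood beside a larger cell total and a smaller HSPA8 share. Among the 9655 genes HSPA8 ranked 3 from the lowest in Pac16h, where it was chosen, and ranked 32 from the lowest in Cele2h, 78 in Pac48h, 270 in PacCele16h and 1013 in Cele16h. With equal totals these places were 18 in Pac16h, 85 in Cele2h, 215 in Pac48h, 99 in PacCele16h and 3207 in Cele16h.

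**Figure D1:**
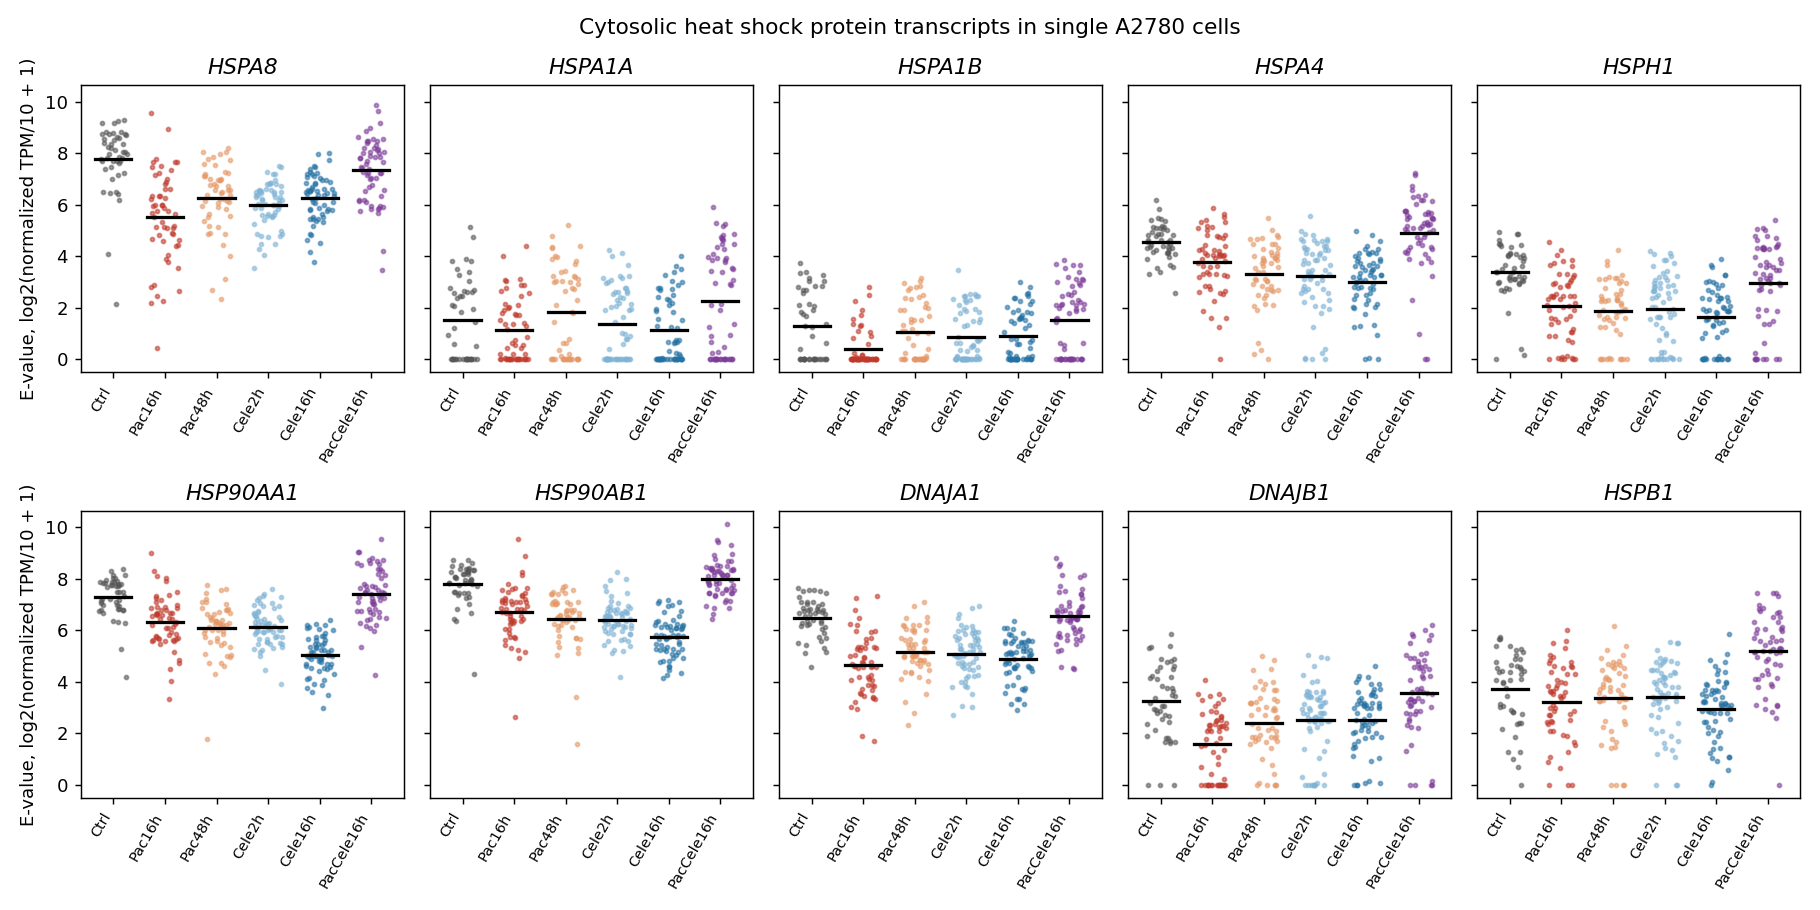
E-values, log2(normalized TPM/10 + 1), of the 10 members in single A2780 cells of the 6 conditions. Each point is 1 cell and each black line the mean over cells. HSPA8, HSP90AA1 and HSP90AB1 were the highest in Ctrl with means of 7.79, 7.30 and 7.80, HSPA1A and HSPA1B were the lowest, and HSPB1 was highest in PacCele16h with 5.18.

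The authors' deposited annotation puts each cell in a state, which was itself predicted from expression, so that the values by state are only a description. The 31 Pac16h cells in the state named suppressive had a mean HSPA8 E-value of 4.57, and the 23 in the state named control had 6.51. Both lay below the Ctrl mean, with differences of -3.22 and -1.28 on the deposited scale and of -2.05 and -0.86 at the same total. In Cele2h the difference to Ctrl at the same total was -1.23 in 33 suppressive and -1.16 in 26 control-state cells, so that HSPA8 was lower than in Ctrl in both states.

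HSPA1A and HSPA1B (chr6:31815543-31817946 and chr6:31827738-31830254) encode the same inducible Hsp70, and their transcripts are so alike that reads shared by both are split by the estimation. Their individual values are therefore uncertain. In Ctrl the mean E-value was 1.53 ± 1.56 for HSPA1A and 1.28 ± 1.32 for HSPA1B, against 7.79 for HSPA8. HSPA1A had mean E-values of 1.14 in Pac16h, 1.84 in Pac48h, 1.37 in Cele2h, 1.13 in Cele16h and 2.25 in PacCele16h. For HSPA1B these means were 0.39, 1.07, 0.87, 0.92 and 1.52. HSPA1B was above 0 in 19 of 56 Pac16h cells, 33.9% (exact Clopper-Pearson 95% interval 21.8 to 47.8%), and in 26 of 46 Ctrl cells, 56.5% (41.1 to 71.1%). These intervals cover counting error only, and they overlap. In the other 4 treatments HSPA1B was above 0 in between 61.9 and 64.4% of the cells, and HSPA1A was above 0 in between 58.7 and 67.8% of the cells of all conditions.

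With the linear values of both genes summed, the mean E-value was 2.25 ± 1.54 in Ctrl, 1.34 ± 1.27 in Pac16h, 2.37 ± 1.61 in Pac48h, 1.86 ± 1.37 in Cele2h, 1.74 ± 1.21 in Cele16h and 2.80 ± 1.99 in PacCele16h. The sum differed from Ctrl by -0.91 in Pac16h, 0.12 in Pac48h, -0.38 in Cele2h, -0.51 in Cele16h and 0.55 in PacCele16h, none but that of Pac16h larger than log2 of 1.5. With totals made equal, these differences were -0.54, 0.54, -0.00, 0.43 and 0.10 in that order, none of them past log2 of 1.5, and that of Cele16h had the opposite sign. The Pac48h value was not the same in both index blocks. HSPA1A differed from Ctrl by 0.64 in the 31 cells of block 4 and by -0.16 in the 22 cells of block 2. The cells of Ctrl were all of block 4. By the authors' states, HSPA1A differed in Pac48h by 0.75 in 28 control-state cells and by -0.19 in 25 suppressive cells. At the same total these differences were 0.90 and 0.16. The paper lists HSPA1A in a module drawn from genes over 1.5-fold higher in those control-state cells. The states were predicted from expression, and whether block or state goes with the difference was not tested.

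HSPA4 (chr5:133052013-133106449) and HSPH1 (chr13:31134973-31162388) are the Hsp110 nucleotide exchange factors among the members. HSPH1 had a mean E-value of 3.38 ± 1.10 in Ctrl and lower means in all 5 treatments, which were 2.06 in Pac16h, 1.89 in Pac48h, 1.96 in Cele2h, 1.62 in Cele16h and 2.95 in PacCele16h. It was also below Ctrl in all 5 at the same total, with differences of -0.78, -1.10, -1.05, -0.92 and -0.93 in that order. HSPH1 was the only member more than log2 of 1.5 below Ctrl at the same total in every treatment. HSPH1 was above 0 in 97.8% of Ctrl cells (88.5 to 99.9%) and in between 83.0 and 92.9% of the cells of the treatments. HSPA4 had a mean E-value of 4.55 ± 0.69 in Ctrl, 3.79 ± 1.20 in Pac16h, 3.33 ± 1.21 in Pac48h, 3.23 ± 1.36 in Cele2h, 3.02 ± 1.13 in Cele16h and 4.92 ± 1.43 in PacCele16h. After rescaling to equal totals HSPA4 differed by -0.03 in Pac16h, -0.68 in Pac48h, -0.86 in Cele2h, -0.33 in Cele16h and -0.29 in PacCele16h.

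The Hsp90 genes HSP90AA1 (chr14:102080742-102139699), the more inducible, and HSP90AB1 (chr6:44246166-44253888), the more constitutive, were with HSPA8 the most abundant members. The 3 made up a median of 79.7% of the summed N of the members in a Ctrl cell and between 72.8 and 80.5% in the treatments. HSP90AA1 in Ctrl ran from 4.20 to 8.40 with a median E-value of 7.48, and in Cele16h from 2.98 to 6.42 with a median of 5.02. None of the 61 Cele16h cells reached the Ctrl median, and 9 lay below the lowest Ctrl cell. The mean of HSP90AA1 was 7.30 ± 0.79 in Ctrl, 6.34 ± 1.03 in Pac16h, 6.09 ± 1.00 in Pac48h, 6.15 ± 0.72 in Cele2h, 5.04 ± 0.74 in Cele16h and 7.42 ± 0.99 in PacCele16h. HSP90AB1 had a mean of 7.80 ± 0.78 in Ctrl and 6.72, 6.44, 6.41, 5.73 and 8.02 in the treatments in that order.

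Both Hsp90 transcripts were lowest in Cele16h, where they differed from Ctrl by -2.26 and -2.06. On the same-total scale HSP90AA1 differed by -0.16 in Pac16h, -0.59 in Pac48h, -0.58 in Cele2h, -0.89 in Cele16h and -0.58 in PacCele16h. For HSP90AB1 these differences were -0.28, -0.73, -0.81, -0.68 and -0.48. HSPA8 and the Hsp90 genes thus had different orders at the same total. HSPA8 was furthest below Ctrl in Pac16h and nearest to it in Cele16h, while HSP90AA1 was nearest in Pac16h and furthest below in Cele16h. The median share of HSPA8 in the summed N of the members was 31.2% in Ctrl, 17.4% in Pac16h, 25.8% in Pac48h, 22.3% in Cele2h, 35.8% in Cele16h and 20.7% in PacCele16h.

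The J-domain proteins DNAJA1 (chr9:33025273-33039907) and DNAJB1 (chr19:14514769-14560391) are partners of Hsp70. DNAJA1 ran from 4.58 to 7.66 in Ctrl with a median E-value of 6.67, from 1.69 to 7.33 in Pac16h with a median of 4.62, and from 4.51 to 8.81 in PacCele16h with a median of 6.51. In Pac16h 53 of 56 cells lay below the Ctrl median and 24 below the lowest Ctrl cell. Its means were 6.50 ± 0.73 in Ctrl, 4.66 ± 1.18 in Pac16h, 5.18 ± 0.96 in Pac48h, 5.09 ± 0.91 in Cele2h, 4.88 ± 0.82 in Cele16h and 6.56 ± 0.95 in PacCele16h. At the same total the differences were -1.07, -0.72, -0.86, -0.25 and -0.64 in the order of the treatments. DNAJA1 therefore had its lowest level in Pac16h and its smallest same-total difference in Cele16h, as HSPA8 did.

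DNAJB1, whose protein also binds HSF1, had mean E-values of 3.25 ± 1.44 in Ctrl, 1.60 ± 1.27 in Pac16h, 2.42 ± 1.33 in Pac48h, 2.52 ± 1.38 in Cele2h, 2.52 ± 1.17 in Cele16h and 3.58 ± 1.56 in PacCele16h. It was above 0 in 71.4% of Pac16h cells (57.8 to 82.7%) and in 93.5% of Ctrl cells (82.1 to 98.6%). With equal totals it differed from Ctrl by -1.25 in Pac16h, -0.35 in Pac48h, -0.33 in Cele2h, 0.41 in Cele16h and -0.21 in PacCele16h. The direction of DNAJB1 in Cele16h thus depended on the scale, being -0.73 on the deposited one. Adding celecoxib to paclitaxel at 16 h went with a DNAJB1 mean higher by 1.97 than in Pac16h, and by 1.05 at the same total.

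HSPB1 (chr7:76302673-76304295), the small heat shock protein also called Hsp27, ran from 0 to 5.74 in Ctrl with a median E-value of 4.11. In PacCele16h it ran from 0 to 7.47 with a median of 5.27, and 47 of 59 cells lay above the Ctrl median and 21 above the highest Ctrl cell. Its mean was 3.73 ± 1.45 in Ctrl, 3.22 ± 1.47 in Pac16h, 3.39 ± 1.44 in Pac48h, 3.42 ± 1.35 in Cele2h, 2.95 ± 1.23 in Cele16h and 5.18 ± 1.44 in PacCele16h. The difference in mean E-value was 1.45 in PacCele16h and 0.78 at the same total. As a ratio of linear means, a separate summary, HSPB1 was 2.87-fold higher on the deposited scale. Split by block, the PacCele16h difference in mean E-value on that scale was 1.43 for block 1 (34 cells) and 1.49 for block 3 (25 cells). After rescaling to equal totals HSPB1 was also above Ctrl by 0.13 in Pac16h, 0.14 in Pac48h, 0.16 in Cele2h and 0.41 in Cele16h, all 4 smaller than log2 of 1.5. In Pac48h HSPB1 differed on the deposited scale by -0.87 in block 2 and by 0.05 in block 4.

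Ordered by mean level, the 6 conditions gave 50 neighbouring pairs over the 10 members, and 44 of them differed by no more than the smaller SD over cells. The 6 pairs beyond it were Ctrl above Pac16h for HSPA4, HSP90AA1 and HSP90AB1, Ctrl above Pac48h for DNAJA1, Pac48h above Cele16h for HSP90AA1 and PacCele16h above Ctrl for HSPB1. Ctrl or PacCele16h held the highest mean of each member. The lowest mean was in Pac16h for HSPA8, HSPA1B, DNAJA1 and DNAJB1, and in Cele16h for the other 6.

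A difference in mean E-value larger than log2 of 1.5 was taken as the limit for counts. In Pac16h, which chose the members, 8 of 10 lay below the limit and none above it on the deposited scale, where 37.3% of all genes lay below and 0.0932% above. On the same-total scale 5 lay below and none above, with 13.2% and 1.89% of all genes. In Pac48h 7 of 10 lay below, against 26.6% of all genes, and none above, against 0.922%. At the same total 6 of 10 lay below, against 8.08%, and none above, against 4.69%. In Cele2h 7 of 10 lay below, against 25.7%, and none above, against 1.12%, and at the same total 5 of 10 below, against 10.9%, and none above, against 4.18%. In Pac48h and Cele2h the share of members below the limit was thus above that of all genes on both scales. The same held in Pac16h, where it is only a description, since its values chose the members. The 794 genes with a mean E-value of at least 5 in Ctrl also had deposited-scale medians past the limit. These were -0.90 in Pac16h, -0.82 in Pac48h and -0.72 in Cele2h.

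In Cele16h 8 of 10 members lay below the limit, where 43.9% of all genes did, and none above it, where 0.383% did. With equal totals 3 of 10 lay below, which were HSPH1, HSP90AA1 and HSP90AB1, against 10.1%, and none above, against 8.87%. In PacCele16h none lay below, against 1.76%, and HSPA1A and HSPB1 lay above, against 30.4%. After rescaling to equal totals HSPA8, HSPH1 and DNAJA1 lay below, against 7.64%, and HSPB1 above, against 7.87%. The median difference over the members was -1.02 in Pac16h, -1.22 in Pac48h, -1.23 in Cele2h, -1.53 in Cele16h and 0.23 in PacCele16h, beside medians of -0.41, -0.26, -0.26, -0.48 and 0.33 over all genes.

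Since a low gene can differ by little on the E-value scale, the members were also read beside the 794 genes with a mean E-value of at least 5 in Ctrl. The medians of these genes on the deposited scale were -0.90 in Pac16h, -0.82 in Pac48h, -0.72 in Cele2h, -1.63 in Cele16h and 0.53 in PacCele16h. On the same-total scale the medians over the members were -0.51, -0.64, -0.70, -0.19 and -0.39, and those of the 794 genes -0.11, -0.21, -0.17, -0.30 and -0.16. On that scale the median over the members was nearer to 0 than that of these genes in Cele16h. It was further from 0 in the other 4 treatments. On the deposited scale it was nearer in Cele16h and PacCele16h. These medians are not like for like, since only HSPA8, HSP90AA1, HSP90AB1 and DNAJA1 had Ctrl means of at least 5. In Cele16h these members stood at -1.53, -2.26, -2.06 and -1.62 on the deposited scale, in that order. At the same total they stood at -0.13, -0.89, -0.68 and -0.25. HSP90AA1 and HSP90AB1 were thus further from 0 than the median of the 794 genes on both scales, and HSPA8 and DNAJA1 nearer.

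**Figure D2:**
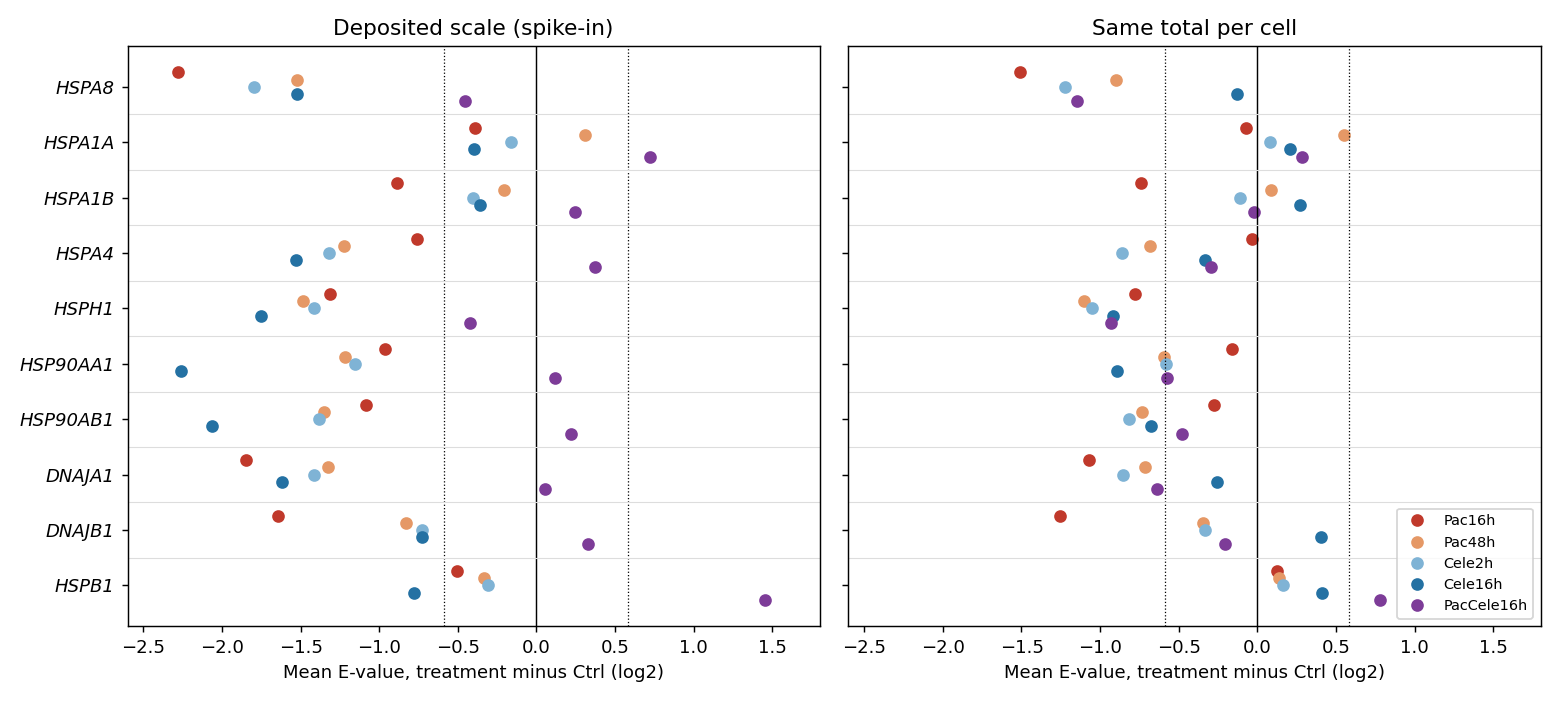
Difference in mean E-value to Ctrl (log2, horizontal axis) of each member in the 5 treatments, on the deposited scale (left) and at the same total per cell (right), with dotted lines at log2 of 1.5. HSPA8 stood at -2.28 in Pac16h and at -0.13 in Cele16h at the same total, HSPH1 was left of the dotted line at the same total in all 5 treatments, and HSPB1 stood at 1.45 in PacCele16h.

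As a share of the summed N of the cell, the 10 members together took a median of 0.594% in Ctrl, with cells between 0.274 and 0.861%. The median was 0.406% in Pac16h, 0.368% in Pac48h, 0.326% in Cele2h, 0.414% in Cele16h and 0.368% in PacCele16h. The share was below the Ctrl median in 54 of 56 Pac16h cells, 51 of 53 Pac48h cells, all 63 Cele2h cells, 57 of 61 Cele16h cells and 56 of 59 PacCele16h cells. The Ctrl median was 1.82-fold that of Cele2h and between 1.43-fold and 1.62-fold that of the other treatments. The ranges of Ctrl and of each treatment overlapped. The share of HSPA8 alone had a median of 0.181% in Ctrl, 0.0672% in Pac16h, 0.0971% in Pac48h, 0.0695% in Cele2h, 0.152% in Cele16h and 0.0796% in PacCele16h.

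**Figure D3:**
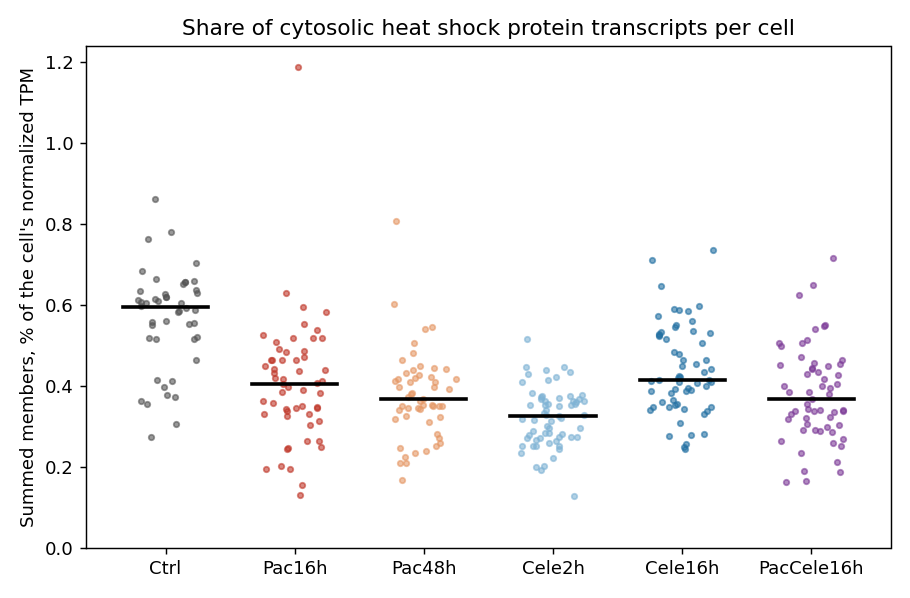
Summed normalized TPM of the 10 members as a percentage of the total of each cell (vertical axis, from 0) in the 6 conditions, with 1 point per cell and black lines at the medians. The median was 0.594% in Ctrl and between 0.326 and 0.414% in the 5 treatments.

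The combination can also be set beside each drug alone at 16 h. Against Pac16h all 10 members were above the limit in PacCele16h on the deposited scale, where 62.5% of all genes were. At the same total 3 were above it, which were HSPA1B by 0.72, HSPB1 by 0.65 and DNAJB1 by 1.05, against 13.0% of all genes, and none was below it, against 2.11%. Against Cele16h all 10 were above the limit on the deposited scale, where 66.0% of all genes were. With equal totals HSPA8 at -1.01 and DNAJB1 at -0.61 were below it, against 5.85% of all genes, and none was above it, against 6.94%.

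Over time, HSPA8 was higher in Pac48h than in Pac16h by 0.76, and by 0.61 at the same total. HSPA4 had the opposite order, with differences of -0.46 and, at the same total, -0.65. From Cele2h to Cele16h HSP90AA1 was lower, with differences of -1.11 and, at the same total, -0.31, while HSPA8 was higher by 0.27 and by 1.09 at the same total. Each time carries its own code in the labels, so that time and code cannot be told apart.

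Within conditions, Pearson's r over the cells was taken for the 45 pairs of members at the same total. Cells of a condition share their sample, both genes of a pair share the depth of the cell, and the values are a description. The mean of the 6 r values was 0.41 for HSPA8 and DNAJA1, with values between 0.22 and 0.59, and 0.38 for HSPA8 and HSP90AA1, with values between 0.13 and 0.55. These were the highest of the 45 pairs. HSP90AA1 and DNAJA1 followed with 0.29, HSPA8 and HSP90AB1 with 0.29, the latter ranging from -0.26 in Pac48h to 0.57 in Pac16h, and HSP90AA1 and HSP90AB1 with 0.28. HSPA1A and HSPA1B, which share reads, had a mean of 0.20. The median over the 45 pairs was 0.10, and 22 pairs were below 0.1. HSPB1 had mean values between -0.05 and 0.07 with 8 of the other 9 members and 0.20 with HSPA1A. These means average values of either sign, as for HSPB1 and HSPA8, from -0.27 in Cele16h to 0.38 in Pac16h. In PacCele16h HSPB1 had values above 0 with all 9, from 0.07 with HSPA4 to 0.32 with HSPA1A. On the deposited scale, where the cell total enters both genes, the median over pairs was 0.29.

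**Figure D4:**
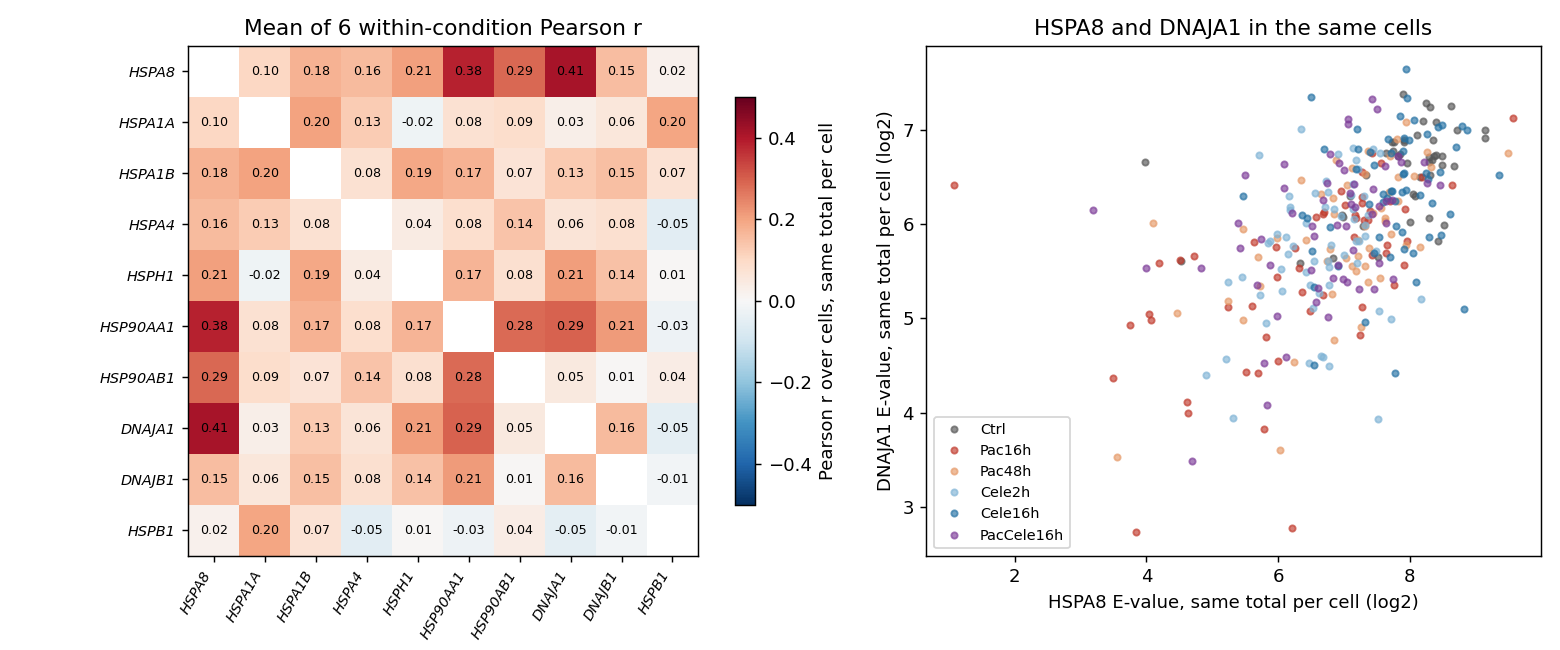
Left, mean of the 6 within-condition Pearson r values between members over cells at the same total. Right, E-values of HSPA8 and DNAJA1 at the same total in the same cells, coloured by condition. HSPA8 with DNAJA1 (0.41) and with HSP90AA1 (0.38) were the highest pairs. The mean for HSPB1 was near 0 with most members, while its values in single conditions were of either sign.

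Of the 7571 genes above 0 in at least 30% of the cells of every condition, the 5 whose differences over the 5 treatments at the same total lay nearest to those of HSPA8 by Euclidean distance were BCS1L (0.41), DDX49 (0.49), URM1 (0.49), GRWD1 (0.50) and PELO (0.51). Their mean E-values in Ctrl were between 2.33 and 3.72, and BCS1L differed from Ctrl by -1.67 in Pac16h and by -0.30 in Cele16h. By the mean of the 6 within-condition r values, the 5 genes most like HSPA8 were CYCS (0.42), DNAJA1 (0.41), HSP90AA1 (0.38), HSPD1 (0.35) and MAT2A (0.35). HSPD1 encodes the mitochondrial Hsp60. HSP90AB1 ranked 31 among these genes, HSPH1 231 and HSPB1 3883.

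The cytosolic co-chaperones of Hsp90 and Hsp70 were read beside the members. All 26 of the list were measured, and 22 lay below the limit in Pac16h, 18 in Pac48h, 22 in Cele2h, 24 in Cele16h and none in PacCele16h. Of all genes 37.3, 26.6, 25.7, 43.9 and 1.76% did so. After rescaling to equal totals these counts were 12, 6, 12, 9 and 5 of 26, beside 13.2, 8.08, 10.9, 10.1 and 7.64% of all genes. Above the limit were 5 of 26 in PacCele16h on the deposited scale, where 30.4% of all genes were, and 1 in Cele16h at the same total, where 8.87% were. HSPBP1, an exchange factor of Hsp70, stood at -1.52 in Pac16h and -1.40 in Cele2h, and at -1.24 and -1.19 at the same total. AHSA1, which stimulates the ATPase of Hsp90, stood at -1.60 in Pac48h and -2.07 in Cele16h, and at -1.02 and -0.73 at the same total. STIP1, which links Hsp70 to Hsp90, stood at -1.50 in Pac16h and -0.78 at the same total. ST13, an Hsp70 cofactor, was higher by 1.11 in PacCele16h and by 0.45 at the same total.

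HSF1 had a mean E-value of 1.73 ± 0.83 in Ctrl, and its differences were -0.96 in Pac16h, -0.68 in Pac48h, -0.77 in Cele2h, -0.77 in Cele16h and 0.16 in PacCele16h. On the same-total scale they were -0.65, -0.38, -0.48, -0.03 and -0.22. Of the 10 genes taken as HSF1 and its regulators 8 had values. At the same total 1 lay below the limit in Pac16h, which was HSF1 itself. In each of Cele2h, Cele16h and PacCele16h 1 lay above it. Of all genes 13.2% lay below in Pac16h, and 4.18, 8.87 and 7.87% above in the other 3, so that single genes of 8 are no result about the list. Of 23 other heat shock inducible genes 20 had values. This list overlaps the others, so that their counts are not separate. It shares STIP1, AHSA1, PTGES3, FKBP4, CHORDC1, NUDC, CACYBP, BAG3 and HSPA4L with the co-chaperones. HSPD1 and HSPE1 are also among the mitochondrial chaperones, and DNAJA4 and DNAJB4 among the J-domain proteins below. At the same total 8 of the inducible genes lay below the limit and 1 above it in Pac16h, 2 and 1 in Pac48h, 4 and 0 in Cele2h, 5 and 2 in Cele16h, and 2 and 1 in PacCele16h. The shares of all genes below were 13.2, 8.08, 10.9, 10.1 and 7.64% in that order, and those above 1.89, 4.69, 4.18, 8.87 and 7.87%. The counts in Pac48h, Cele2h and PacCele16h and the counts above the limit are near this background and are no result about the list. SERPINH1, the collagen chaperone Hsp47, stood at 1.24 in PacCele16h and at 0.71 at the same total.

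Of 19 other J-domain proteins of the cytosol and nucleus 16 had values, with 2, 3, 3, 2 and 2 below the limit at the same total in the order of the treatments and 3 above it in Cele16h. Beside the same shares of all genes below, and 8.87% above in Cele16h, these differ from the background by no more than 2 of 16 genes and are no result about the list. DNAJC9 stood at -1.01 and DNAJC2, a ribosome-associated J-domain protein, at -0.64 in Pac16h at the same total. None of 8 further small heat shock proteins was among the genes with values, so that HSPB1 had no such relative to be set beside it.

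Other chaperone systems were read beside the members at the same total. The 8 subunits of the CCT chaperonin, which folds tubulin and actin in the cytosol, had medians of -0.37 in Pac16h, -0.46 in Pac48h, -0.64 in Cele2h, -0.54 in Cele16h and -0.55 in PacCele16h, all below 0 as for the members. The medians of the 794 genes with a mean E-value of at least 5 in Ctrl were also all below 0. They were -0.11, -0.21, -0.17, -0.30 and -0.16, so that the sign alone is not particular to chaperones. The 14 mitochondrial chaperones had medians of 0.01, -0.17, -0.07, 0.14 and 0.03 in that order, and the 17 chaperones of the endoplasmic reticulum -0.15, -0.01, -0.00, 0.32 and 0.21. These differences between lists were not tested, since each condition was 1 sample.

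The relatives of the members in other compartments, taken after their values were known, are given beside them. HSPA5, the Hsp70 of the endoplasmic reticulum, had a mean E-value of 4.93 ± 0.90 in Ctrl and differed at the same total by -0.27 in Pac16h, 1.17 in Cele16h and 0.65 in PacCele16h, where HSPA8 differed by -1.51, -0.13 and -1.15. HSPA9, the mitochondrial Hsp70, differed by -0.06, 0.50 and 0.08. HSP90B1, the Hsp90 of the endoplasmic reticulum, differed by 0.26 in Pac16h, -0.26 in Cele16h and 0.19 in PacCele16h, and TRAP1, the mitochondrial Hsp90, by 0.01, -0.30 and 0.25. HSP90AA1 stood at -0.16, -0.89 and -0.58.

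**Figure D5:**
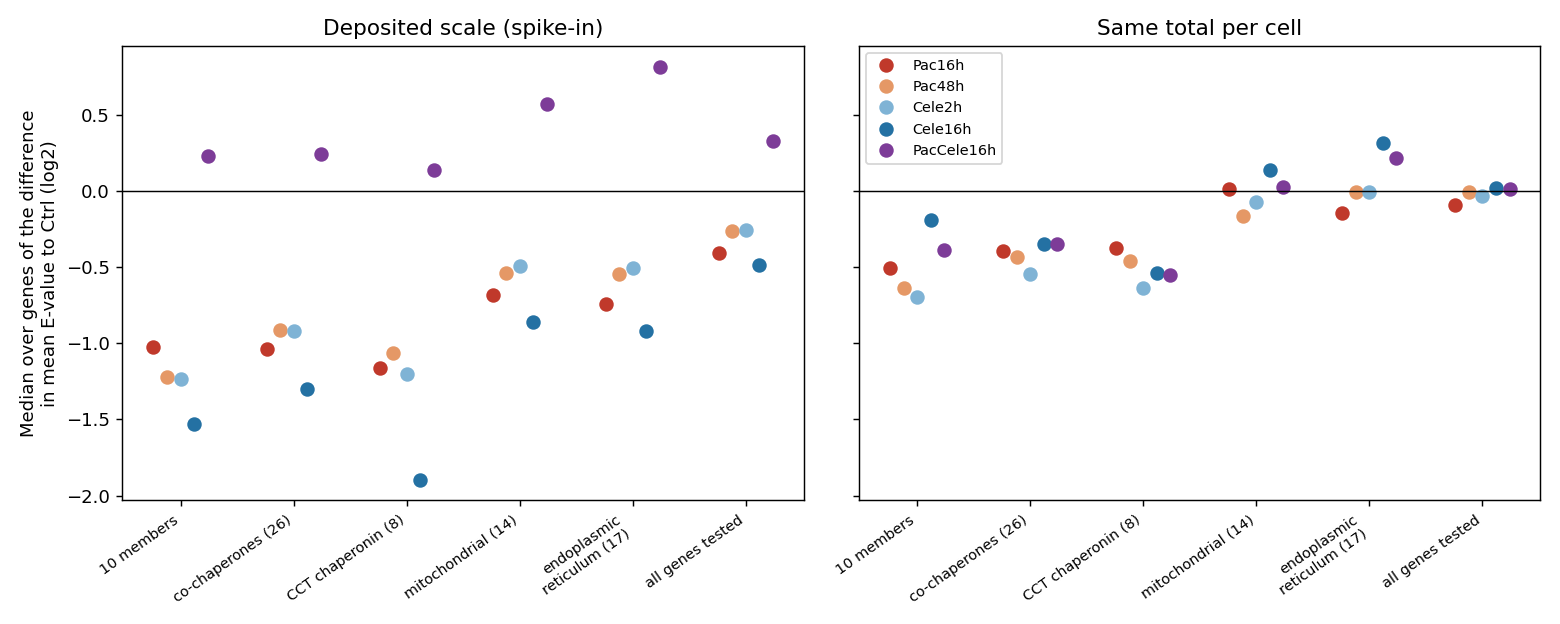
Median difference in mean E-value to Ctrl (log2, vertical axis) over the members, over 4 other chaperone lists with their number of genes, and over all genes tested, on the deposited scale (left) and at the same total (right). Each point is 1 treatment. With equal totals the members, the co-chaperones and the CCT subunits lay below 0 in all 5 treatments, with members between -0.70 and -0.19, and the chaperones of the endoplasmic reticulum lay at 0.32 in Cele16h. The median of the 794 genes with a mean E-value of at least 5 in Ctrl, not plotted, was also below 0 in all 5.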

How the data were processed

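Single-cell RNA of A2780 cells was measured in 6 conditions, each counted as 1 sample. The authors used Trim Galore on the reads and RSEM 1.3.0 with Bowtie2 (hg38, GENCODE version 28, 3 spike-in RNAs) for TPM. The most abundant spike-in of a cell set its scale. Cells in which housekeeping genes were poorly detected had been left out, as had genes seen in 30% or fewer of the cells of every condition. The deposited log2 values, E = log2(N/10 + 1), cover 9664 genes and 338 of 372 labelled cells. Reads per cell are unknown. No doublet caller was run, since counts are needed for it, and each cell had its own library index.

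From these values N was recovered, and means over cells were compared between conditions on the deposited scale and after rescaling each cell to the median Ctrl total. A difference over log2 of 1.5 was counted, over 9655 genes past 30% of cells in any condition, since 9 listed genes did not pass this when recomputed. The members and gene lists were chosen with earlier results of these data known. All 10 members are named, with the 3 largest differences per list and treatment in genes above 0 in at least 30% of both groups, of which some are printed, and the 5 genes most like HSPA8. The alternatives were a ratio of linear means, medians over cells, a pseudocount of 1, only cells marked 1, no filter or a 50% detection limit, HSPA1A and HSPA1B summed, and single index blocks. Gene coordinates are from GENCODE version 44 on hg38 and promoters from RefSeq GRCh38.p14. The steps were tested on simulated data in which only genes with a mean E-value of at least 5 in Ctrl were changed. That test does not cover changes in HSPA1A, HSPA1B, HSPA4, HSPH1, DNAJB1 and HSPB1, whose Ctrl means were lower. Tables were read with pandas 2.3.3 and numpy 2.4.6 in Python 3.11.15, intervals came from scipy 1.17.1 and plots from matplotlib 3.10.9.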

Additional observations from a re-analysis of the deposited data

Results flagged for a closer look

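On the deposited scale paclitaxel went with lower levels of 8 members when given alone for 16 h and with higher levels when added to celecoxib, in each case by more than log2 of 1.5. Of all 9655 genes, 33.8% lay past the limit in opposite directions in these 2 comparisons, in either order, and the values of Pac16h against Ctrl chose the members. The 794 genes with a mean E-value of at least 5 in Ctrl had a median of -0.90 in Pac16h against Ctrl. Their median was 2.17 in PacCele16h against Cele16h, so that these medians also lay past the limit in opposite directions. The effect with celecoxib minus the effect without it was 3.35 for HSPA8, 1.49 for HSPA1B, 2.66 for HSPA4, 2.64 for HSPH1, 3.34 for HSP90AA1, 3.37 for HSP90AB1, 3.52 for DNAJA1 and 2.70 for DNAJB1. The difference between the effects was not tested, since each of the 4 conditions was 1 sample. At the same total no member moved past the limit in opposite directions, where 1.24% of all genes did. HSPA8 then stood at -1.51 without and at -1.01 with celecoxib, and DNAJB1 at -1.25 and -0.61. The median cell total stood at -0.99 in Pac16h, -1.52 in Cele16h and 0.49 in PacCele16h relative to Ctrl on the log2 scale.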

How the results depend on the processing

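No paired analysis was possible because each condition is 1 sample and the cells carry no replicate number. The largest changes came from rescaling every cell to the same total. The count of members below the limit became 5 in Pac16h, 3 in Cele16h and 3 in PacCele16h, and that above it 1 in PacCele16h. The median over the members became -0.51 in Pac16h, -0.19 in Cele16h and -0.39 in PacCele16h. In Cele16h DNAJB1 became 0.41 and HSPB1 0.41, opposite to their deposited direction. A further 13 differences of single members, none past the limit on the deposited scale, turned sign at the same total. In Cele16h these were HSPA1A at 0.21 and HSPA1B at 0.27, and in PacCele16h they included HSPA4 at -0.29, HSP90AA1 at -0.58, HSP90AB1 at -0.48 and DNAJA1 at -0.64, the last past the limit. In PacCele16h 1 member lay below the limit with a pseudocount of 1, and 1 in index block 3 alone. Above it lay 4 with medians over cells and 1 with HSPA1A and HSPA1B summed, and in Pac48h 1 in index block 4 alone. The cause was not tested where cells or the summary changed. Of the other values of counts and medians, all stayed within 1.5-fold or on their side of the limit. Leaving out the 1 PacCele16h cell not marked 1 changed no count. Dropping the filter or raising it to 50% of cells could change no count of members, since every member passed both limits. Values of HSPA1A, HSPA1B and of genes with processed pseudogenes, such as HSPA8, HSP90AA1, HSP90AB1 and HSPB1, depend on how RSEM divides shared reads. Condition and labelled code cannot be told apart, and unknown depth limits what can be said of genes near 0.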
